A study of Mus musculus with 6 samples.

Results

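The core components of the spliceosome were examined in primary brite adipocytes, the thermogenic adipocytes that arise within white adipose tissue, after knockdown (KD) of the long noncoding RNA *Ctcflos*. The group held every gene symbol of the deposited table that starts with Snrp, Snrnp, Sf3a, Sf3b or U2af, or with Prpf or Lsm followed by a digit, except *Prpf4b*, *Snrpn* and symbols ending in -ps. This gave 53 of 52089 symbols, with 416 of 168021 transcript rows. Preadipocytes of the inguinal white fat of 129SvEv mice were induced for 2 days and then kept for 1 day in differentiation medium with rosiglitazone. They were reverse transfected at 50 nM with an LNA Gapmer, an antisense oligonucleotide that directs cleavage of the RNA it binds, and harvested 24 h later. The *Ctcflos* KD group (n = 3 libraries) received a Gapmer against *Ctcflos*, which the study names ASO 1 against transcript 1, and the NC ctrl group (n = 3) a Gapmer without a target, so that all libraries share the transfection, the rosiglitazone and the strain. With 1 targeting Gapmer, other effects of its sequence cannot be told apart from those of the KD. The labels do not say whether the replicates were separate cultures, and the p-values measure only the spread between these libraries, which may be technical.

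*Ctcflos* itself (1300015D01Rik in the table) lay at 0.0969, 0.0705 and 0.210 RPKM in KD replicates 1 to 3, and at 0.748, 0.751 and 0.840 RPKM in the controls, where RPKM are reads per kilobase of transcript and mio mapped reads. The KD mean was 0.161 of the control mean, and the groups did not overlap. At this low level the log2(RPKM + 1) scale understates the difference, which was -0.66 there (SE 0.0840, adjusted p = 0.0254 by limma without a filter on low values, Benjamini-Hochberg adjusted) and -2.01 with a pseudocount of 0.1 (adjusted p = 0.0191). Blocking on the replicate number ended the call (adjusted p = 0.113 by limma), as did leaving out any 1 library except KD replicate 3 (adjusted p = 0.0619 to 0.130). That block joins replicates 2 and replicates 3 of the groups, whose deviations from the group means correlated at -0.29 and -0.42. The depth was 60.8 to 75.5 mio reads in KD libraries and 62.9 to 79.2 mio in controls. KD replicate 3 stood apart from the other KD libraries, with the highest residual *Ctcflos* and the lowest depth. Markers of the studied cells differed between the groups. The summed level of 6 adipocyte markers was 3948 to 5304 RPKM in KD and 5602 to 6229 RPKM in controls. All 6 were lower in every KD library than in every control, and 1 of them was called (*Cebpa*). The sum of 5 brite markers was 61.6 to 81.0 against 108 to 166 RPKM, with 3 called lower. Of all genes tested, 21.9% were below every control in each KD library and 12.4% were called lower. Progenitor and fibroblast markers summed to 194 to 409 against 292 to 468 RPKM, with 1 of 4 tested called (*Pdgfra*, lower). Macrophage and leukocyte markers summed to 7.23 to 16.8 against 9.16 to 28.6 RPKM, with no common direction over the 6 genes. *Cd68* was called higher, and *Csf1r*, under the filter and at 2.52 times its control mean of 0.514 RPKM, was above every control, while *Ptprc*, which defines leukocytes (at most 0.0486 RPKM), and *Cd14* (0.591 against 0.904 RPKM) were below every control, and *Emr1* (at most 0.345 RPKM) and *Lyz2* (5.25 against 12.9 RPKM, not called) overlapped. Endothelial markers summed to 0.666 to 0.984 against 1.24 to 1.46 RPKM. Within the KD group, replicate 3 had the highest sums of adipocyte (5304 RPKM) and of macrophage and leukocyte markers (16.8 RPKM). Every adipocyte marker except *Plin1* was highest there. Of the macrophage and leukocyte sum, 12.8 RPKM was *Lyz2* alone. *Emr1* and *Ptprc* were also highest in replicate 3, while *Cd68* (2.16 RPKM), *Csf1r* (1.10 RPKM) and *Cd14* (0.580 RPKM) were lowest there. KD replicate 3 had the lowest sums of brite (61.6 RPKM), progenitor and fibroblast (194 RPKM) and endothelial markers (0.666 RPKM). The progenitor sum followed *Ly6a*, at 152 RPKM there and 317 and 374 RPKM in KD replicates 1 and 2. *Pi16* was also lowest there, *Col1a1*, *Pdgfrb* and *Dpp4* lay between, and *Pdgfra* was highest (14.0 RPKM). Of the brite markers *Ucp1*, *Cidea* and *Cox7a1* were lowest there, *Elovl3* lay between and *Ppargc1a* was highest. Every endothelial marker except *Tek* was lowest there. The part of these shifts in the results below was not tested, and in bulk libraries fewer cells of a type and less RNA per cell cannot be told apart.

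The spliceosome removes introns from pre-mRNA and is assembled anew on each intron from small nuclear ribonucleoproteins (snRNPs). The U1 snRNP binds the 5′ splice site, U2AF and then the U2 snRNP bind the 3′ end of the intron and its branch point, and the preassembled U4/U6.U5 tri-snRNP joins before the catalytic steps. A ring of Sm proteins sits on the U1, U2, U4 and U5 RNAs and a related ring of LSm proteins on the U6 RNA. Every intron-containing gene of an adipocyte depends on these proteins, which are expressed in all tissues.

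Of the 53 spliceosome genes, 51 reached a mean of 1 RPKM and were tested, while *Lsm5* and *Prpf40b* stayed below. *Ctcflos* KD went with a higher level of 10 of them and a lower level of 2. The genes that rose were *Prpf3*, *Snrnp200*, *Prpf4*, *Lsm14b*, *Snrpd3*, *Snrpa1*, *U2af2*, *Snrpb2*, *Sf3b4* and *Snrpe*, by 0.36 to 0.82 on the log2 scale, and the genes that fell were *Snrnp70*, by 0.68, and *Lsm1*, by 0.57. A call is a Benjamini-Hochberg adjusted p under 0.05 over all 11701 genes tested by limma on log2(RPKM + 1), a scale that understates the change of low genes. The 12 calls are 23.5% of the members, next to 24.0% of all genes tested, so the spliceosome genes were called about as often as other genes. In KD libraries, 19.6% were higher against 11.5% of all genes, and 3.92% were lower against 12.4%.

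Fold changes of the members lay mostly above 0. Of the 51, 38 (74.5%) were positive, compared with 53.2% of all genes tested, and their median was 0.22 against 0.03 for all genes. Every KD library lay above every control for 25 members (49.0%), with 22.9% of all genes as background, and below every control for 2 (3.92%), with 21.9% as background. The median over members, relative to the control mean, was 0.25, 0.30 and 0.12 in KD replicates 1, 2 and 3. KD replicate 3 was the lowest KD library in 8 of the 10 genes that rose, the highest in the 2 that fell, and the lowest in 29 of the 38 with a positive fold change. The members are short genes, spanning 1.96 to 63.8 kb, and among all genes that span under 100 kb 12.8% were higher, 10.2% were lower and the median was 0.05.

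**Figure D1:**
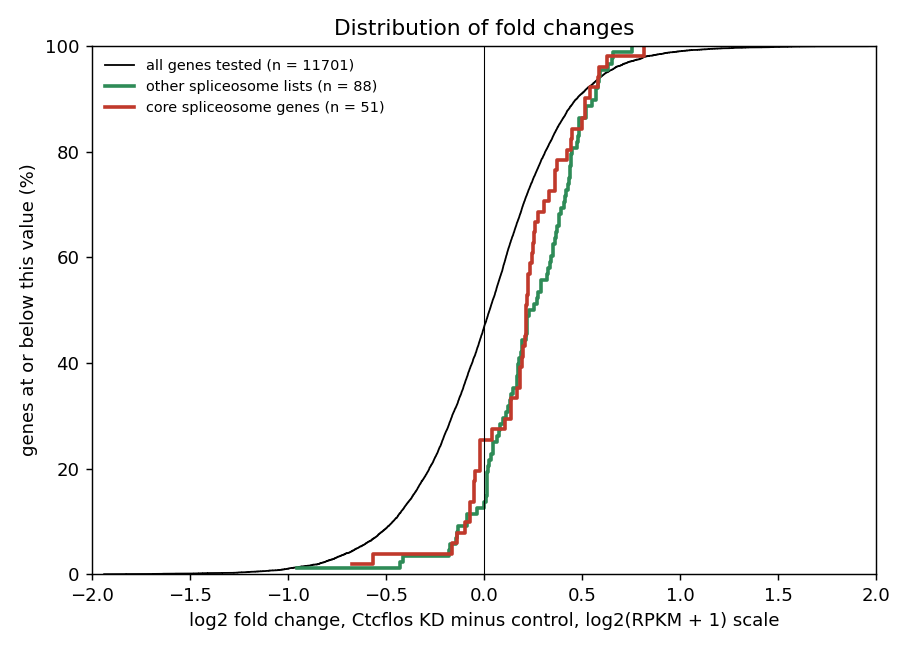
Cumulative share of genes (y axis, %) at or below each log2 fold change, *Ctcflos* KD minus control (x axis, log2(RPKM + 1) scale, -2 to 2; 5 genes lie outside it), for all 11701 genes tested (black), 88 other spliceosome genes (green) and the 51 core members (red). The red and green curves lie to the right of the black curve over most of their range, with medians of 0.22 and 0.24 against 0.03.

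The number of calls changed when 1 library was left out, which also makes a group smaller. Without NC ctrl replicate 1 or 3, limma called 0 members (15 and 14 at an unadjusted p under 0.05), where 3.6% and 3.16% of all genes were called. KD replicate 1 or 2 left out gave 1 call each (*Snrnp70*) and NC ctrl replicate 2 left out gave 3, next to 10.1%, 9.31% and 13.5% of all genes. Without KD replicate 3, 25 members were called, 23 higher and 2 lower, against a background of 23.3% and 17.8% (41.1% in either direction). Without the filter on low values 1 member was called, next to 4.71% of all genes. The median over members stayed between 0.17 and 0.28 when any library was left out. When *Lsm1*, *Lsm10*, *Lsm11*, *Lsm12*, *Lsm14a* and *Lsm14b*, which match the rule by name but are not core spliceosome proteins, were set aside, 9 of 45 members were higher and 1 was lower.

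**Figure D2:**
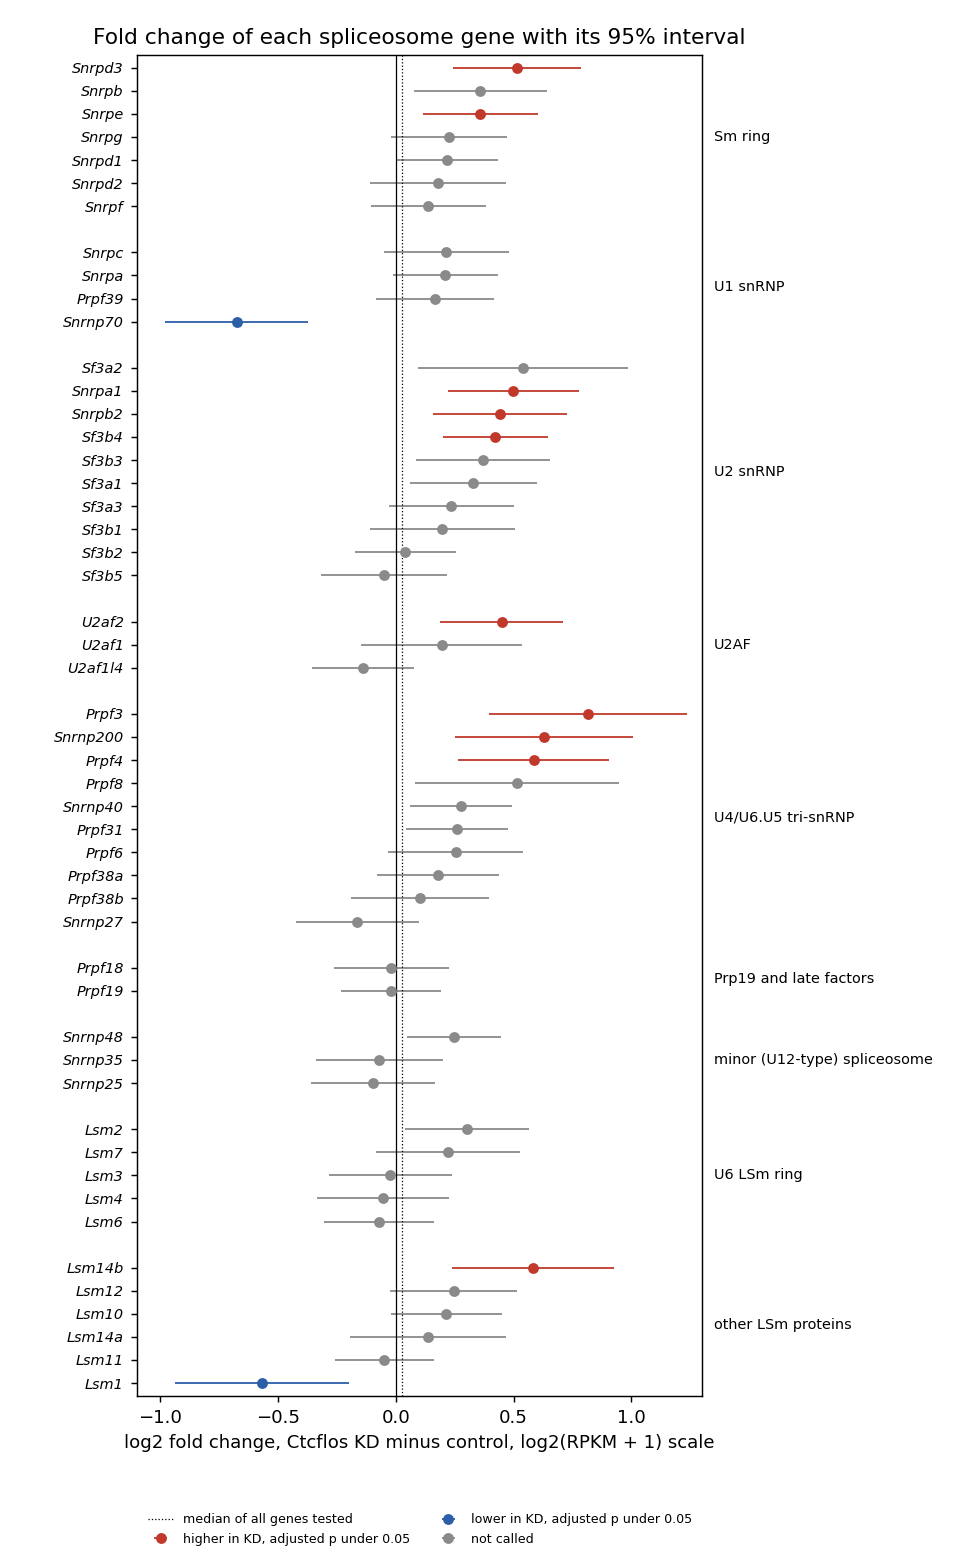
Log2 fold change (x axis, *Ctcflos* KD minus control, log2(RPKM + 1) scale) of tested spliceosome genes (y axis), grouped by role, with the 95% interval from limma (n = 3 libraries a group). Red points were called higher (10 genes), blue lower (2 genes) and grey not called; the dotted line marks the median of all genes tested, 0.03.

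Promoters were read from RefSeq (GRCm38.p6) as windows from 250 bases before to 50 bases after an annotated start, which exist for 42 of the 53 members. The letters CCGGAAG, bound by ETS factors, were searched on both strands. They occurred in 15 members (35.7%), compared with 9.93% of 27025 symbols with a window and 22.3% of the 6950 of these that were tested for expression. Of members with a window, 4 of 8 that rose and 10 of 31 that were not called held them. GCGCATGC, an NRF1-type motif, occurred in 4 members (9.52%) and in 6.55% of the tested symbols. The E-box CACGTG was found in 9.52% against 12.5%, the YY1-type AAGATGG in 7.14% against 9.17%, the CCAAT box in 42.9% against 43.8% and the GC box GGGCGG in 66.7% against 71.2%. These motifs were chosen after promoters had been looked at, and a match is a description of letters, not a bound site. Windows are printed for *Prpf3*, which rose most, and for *Snrnp200* and *Snrpb2*, with CCGGAAG or its reverse complement CTTCCGG in capitals. *Snrnp70*, which fell most, holds GCGCATGC or GCATGCGC (capitals) at 4 places, with 6 overlapping matches, and no CCGGAAG. The other members with GCGCATGC were *Lsm2*, *Lsm10* and *U2af1l4*, at log2 fold changes of 0.30, 0.22 and -0.14, and none was called. Genes that rose without CCGGAAG are not printed, so the printed windows do not show whether a motif goes with a direction. *Prpf3* has another annotated window without CCGGAAG, which is not shown.
Prpf3, chr3:95855704-95856003, minus strand: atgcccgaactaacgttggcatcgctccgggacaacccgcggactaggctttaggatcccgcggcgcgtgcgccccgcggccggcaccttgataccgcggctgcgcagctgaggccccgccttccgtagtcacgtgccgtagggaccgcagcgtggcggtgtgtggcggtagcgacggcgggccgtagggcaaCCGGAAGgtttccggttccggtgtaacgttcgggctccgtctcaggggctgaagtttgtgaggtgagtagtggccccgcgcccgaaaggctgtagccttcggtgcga
Snrnp200, chr2:127208136-127208435, plus strand: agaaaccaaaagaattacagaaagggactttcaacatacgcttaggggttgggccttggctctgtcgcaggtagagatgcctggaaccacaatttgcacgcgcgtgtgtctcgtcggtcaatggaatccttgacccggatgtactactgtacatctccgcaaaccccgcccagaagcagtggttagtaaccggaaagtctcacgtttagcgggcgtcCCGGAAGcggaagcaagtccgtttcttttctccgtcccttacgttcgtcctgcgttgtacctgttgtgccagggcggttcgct
Snrpb2, chr2:143062819-143063118, plus strand: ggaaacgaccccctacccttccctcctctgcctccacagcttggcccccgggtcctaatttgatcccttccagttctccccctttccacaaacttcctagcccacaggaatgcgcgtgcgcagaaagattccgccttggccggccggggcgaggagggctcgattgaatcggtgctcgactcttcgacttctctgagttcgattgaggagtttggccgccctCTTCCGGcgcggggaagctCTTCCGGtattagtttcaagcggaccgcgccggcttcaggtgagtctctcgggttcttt
Snrnp70, chr7:45395693-45395992, minus strand: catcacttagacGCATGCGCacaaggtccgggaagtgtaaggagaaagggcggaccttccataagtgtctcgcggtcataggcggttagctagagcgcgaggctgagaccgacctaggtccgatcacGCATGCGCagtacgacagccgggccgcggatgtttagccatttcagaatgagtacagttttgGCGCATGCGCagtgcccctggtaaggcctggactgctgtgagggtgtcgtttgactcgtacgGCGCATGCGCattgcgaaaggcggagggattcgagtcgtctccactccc

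In the Sm ring, which encircles the snRNAs and is loaded by the SMN complex, 2 of 7 genes rose (28.6%, next to 11.5% of all genes tested) and none fell (12.4% of all genes), and all 7 fold changes were positive (53.2% of all genes). *Snrpd3* (SmD3, chr10:75517551-75537381) measured 6.83, 7.15 and 6.42 RPKM in KD replicates 1 to 3 and 3.88, 5.29 and 4.30 RPKM in the controls. The 3 KD libraries lay close together and above all controls (fold change 1.51, log2 0.51, SE 0.118, adjusted p = 0.0205 by limma). The gene overlaps *Gucd1* on the opposite strand. *Snrpe* (SmE, chr1:133603871-133610291) measured 12.7, 14.1 and 12.7 RPKM against 9.31, 10.2 and 10.6 RPKM, again without overlap (log2 0.36, SE 0.106, adjusted p = 0.0439 by limma). *Snrpd2* (SmD2), the most abundant member of the ring, had 30.6 ± 3.34 RPKM in KD and 26.8 ± 1.69 in controls (SD, n = 3), and its groups overlapped. *Snrpf* (SmF) had 1.31 ± 0.214 against 1.10 ± 0.152 RPKM, and its log2 fold change of 0.14 was the smallest of the ring on the log2(RPKM + 1) scale, whereas by the ratio of the means *Snrpd2* differed least (1.14, against 1.20 for *Snrpf*). *Snrpb*, *Snrpg* and *Snrpd1* had every KD library above every control without being called, at log2 fold changes of 0.36, 0.23 and 0.22.

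Of the proteins of the U1 snRNP, which defines the 5′ splice site, *Snrnp70* was the one tested gene that fell, and none rose (1 of 5 called, next to 24.0% of all genes). It encodes the protein that binds the first stem-loop of U1 RNA, and spans chr7:45376453-45395742. Its level was 2.61, 2.90 and 3.99 RPKM in KD replicates 1 to 3 and 5.62, 5.86 and 5.30 RPKM in the controls. No KD library reached a control, and KD replicate 3 came nearest (0.566 of the control mean, log2 -0.68, SE 0.132, adjusted p = 0.0133 by limma). *Snrnp70* was called in 9 of 11 alternative settings and lost the call without NC ctrl replicate 1 or 3. *Snrpa* and *Snrpc*, the genes of the other core U1 proteins, measured 5.74 ± 0.403 against 4.82 ± 0.276 RPKM and 2.75 ± 0.402 against 2.23 ± 0.273 RPKM, and neither was called (log2 0.21 for both). The U1-associated *Prpf39* had 3.14 ± 0.425 against 2.68 ± 0.232 RPKM and was not called. *Prpf40b*, another U1-associated protein, was under the filter, at 0.224, 0.156 and 0.227 RPKM in KD and 0.495, 0.441 and 0.502 RPKM in controls. All its KD values were below all controls, at 0.422 of the control mean, a lower ratio than that of *Snrnp70*, and the fit without a filter gave -0.30 (adjusted p = 0.0536 by limma).

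The U2 snRNP recognises the branch point. Of its 10 tested proteins 3 rose and none fell (30.0% called, next to 24.0% of all genes, of which 11.5% were higher). *Snrpa1* (chr7:66059003-66074587) measured 3.49, 3.76 and 2.64 RPKM in KD and 1.84, 2.15 and 2.09 RPKM in controls. *Snrpb2* (chr2:143063039-143072853), its partner on stem-loop IV of U2 RNA, measured 6.90, 9.11 and 7.12 RPKM against 4.94, 5.55 and 5.67 RPKM. Both U2-specific proteins were thus above all controls in every KD library, *Snrpa1* by 0.50 (SE 0.120, adjusted p = 0.0230) and *Snrpb2* by 0.44 (SE 0.124, adjusted p = 0.0371 by limma) on the log2 scale. In the SF3B complex, which holds the branch helix, *Sf3b4* (chr3:96172332-96177564) rose, with 3.05, 2.77 and 2.40 RPKM against 1.74, 1.84 and 1.76 RPKM (log2 0.42, SE 0.0965, adjusted p = 0.0199 by limma). The 3 controls of *Sf3b4* were nearly equal and the KD libraries were apart from them; an annotated gene of the opposite strand, *Gm17690*, overlaps it.

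Other SF3B and SF3A subunits were not called. *Sf3b1*, the large scaffold of SF3B and the most abundant U2 gene, had 24.0 ± 3.54 RPKM in KD and 20.7 ± 1.00 in controls, with overlap. *Sf3b3* had 9.86 ± 1.31 against 7.37 ± 0.601 RPKM (log2 0.37, adjusted p = 0.0631 by limma). The largest positive fold change of the complex was that of *Sf3a2*, with 2.48, 1.27 and 1.00 RPKM in KD and 0.851, 0.747 and 0.593 RPKM in controls (log2 0.54, SE 0.194, adjusted p = 0.0776 by limma). KD replicate 1 was far above the other 2 KD libraries here, and *Plekhj1* overlaps the gene on the opposite strand. All controls of *Sf3a2* were under 1 RPKM, so it passed the filter on the mean only through the KD libraries. *Sf3a1* and *Sf3a3*, its partners in SF3A, had log2 fold changes of 0.33 and 0.24. *Sf3b2* (0.04) and *Sf3b5* (-0.05) were close to 0, *Sf3b5* at 19.0 ± 1.90 against 19.6 ± 0.707 RPKM. The differences within SF3B were not tested against each other.

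U2AF binds the polypyrimidine tract and the AG at the 3′ splice site. *U2af2*, the large subunit (chr7:5062143-5079938) and the most abundant of the 3 U2AF genes, rose, at 11.2, 13.0 and 10.6 RPKM in KD against 8.09, 8.76 and 7.75 RPKM in controls. The lowest KD library was above the highest control (log2 0.45, SE 0.114, adjusted p = 0.0268 by limma). *U2af1*, the small subunit, had 2.24, 2.70 and 1.52 RPKM against 1.48, 1.90 and 1.80 RPKM, with KD replicate 3 inside the range of the controls, and was not called. *U2af1l4*, a paralog of the small subunit, had 1.20 ± 0.161 against 1.42 ± 0.0919 RPKM (log2 -0.14, not called). It has 33 rows in the table and overlaps *Psenen* on the opposite strand.

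**Figure D3:**
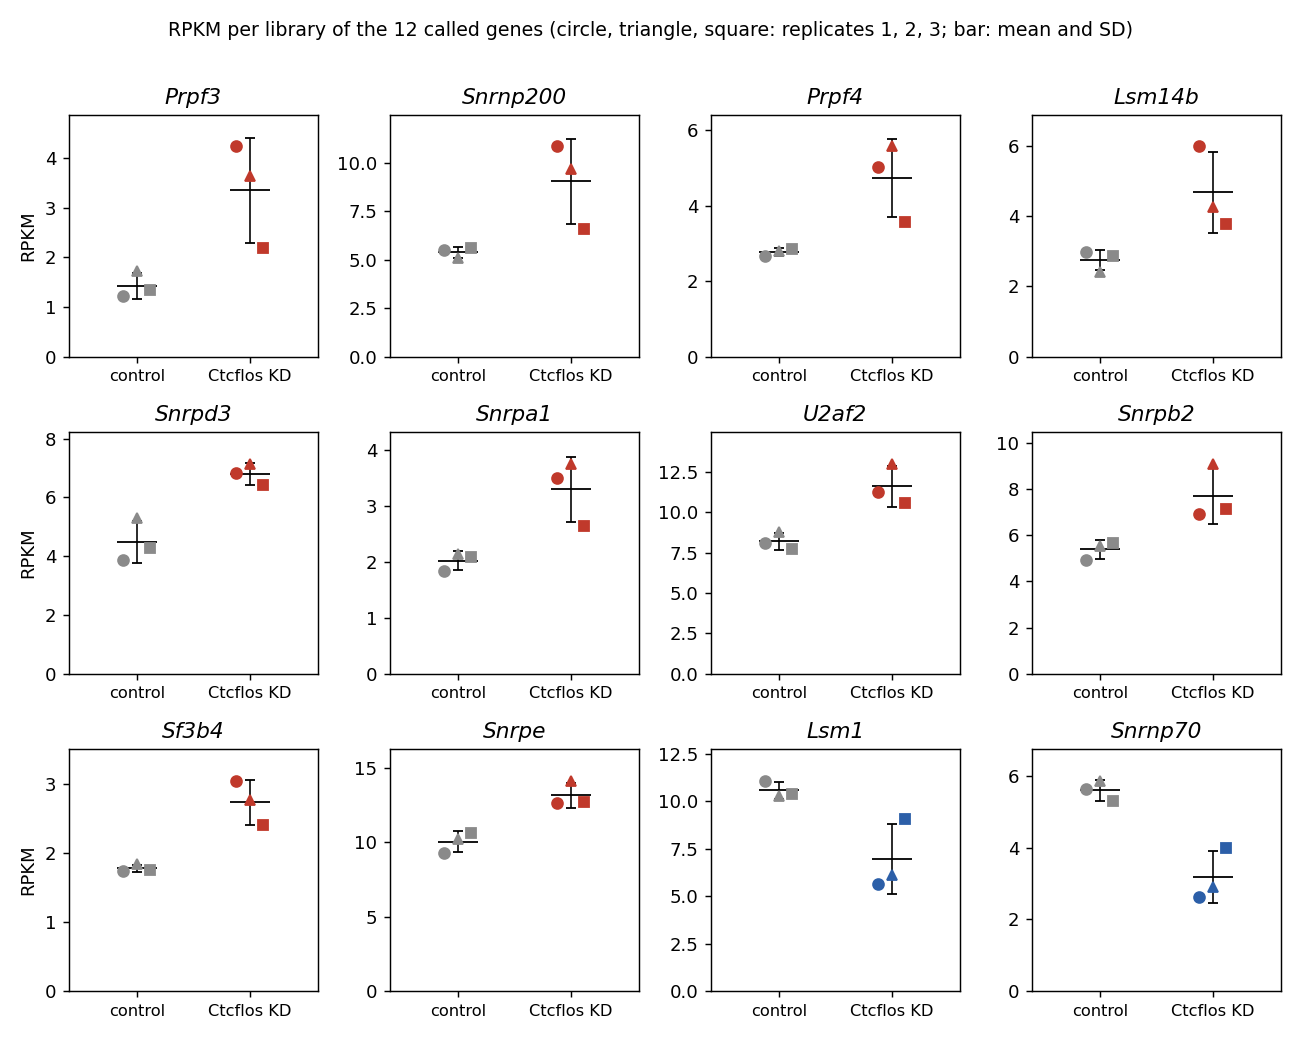
RPKM (y axis, from 0) in each library of the 12 called spliceosome genes, controls in grey and *Ctcflos* KD in red (higher) or blue (lower); circles, triangles and squares are replicates 1, 2 and 3, and bars give the mean and SD (n = 3). The square of KD replicate 3 is the KD library nearest to the controls in 8 of the 10 genes that rose and in the 2 that fell.

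The U4/U6.U5 tri-snRNP carries the proteins that are rearranged at activation, and 3 of its 10 genes rose while none fell, again 30.0% called next to 24.0% of all genes. *Prpf3*, which with *Prpf4* forms the U4/U6 di-snRNP heterodimer, spans chr3:95830124-95855885. Its level was 4.24, 3.63 and 2.19 RPKM in KD and 1.22, 1.72 and 1.34 RPKM in controls. This was the largest rise among all members, by 2.35-fold (log2 0.82, SE 0.182, adjusted p = 0.0189 by limma), with KD replicate 3 the nearest to the controls. *Prpf4* (chr4:62408797-62426990) measured 5.03, 5.58 and 3.58 RPKM against 2.66, 2.81 and 2.85 RPKM, so that both partners of the heterodimer rose (log2 0.59, SE 0.139, adjusted p = 0.0222 by limma). *Snrnp200* (Brr2, chr2:127208386-127240451), the helicase that unwinds U4 from U6, measured 10.8, 9.69 and 6.60 RPKM against 5.50, 5.07 and 5.60 RPKM. It was 1.68-fold higher (log2 0.63, SE 0.165, adjusted p = 0.0300 by limma), with KD replicate 3 only little above the controls.

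*Prpf8*, the scaffold of U5 that holds the catalytic RNA and the most abundant tri-snRNP gene, had 16.7, 11.3 and 9.49 RPKM in KD and 9.06, 7.86 and 7.79 RPKM in controls. All KD values exceeded the controls, but their spread was wide and the gene was not called (log2 0.51, SE 0.188, adjusted p = 0.0819 by limma). *Snrnp40* of U5 (log2 0.28), *Prpf31*, which binds the U4 RNA (0.26), and *Prpf6*, which bridges U5 and U4/U6 (0.25), were not called either; *Snrnp40* and *Prpf31* had every KD library above the controls and *Prpf6* did not. *Prpf38a* and *Prpf38b* had 4.09 ± 0.494 against 3.49 ± 0.378 RPKM and 8.29 ± 1.20 against 7.60 ± 0.672 RPKM. *Snrnp27* had the lowest fold change of the tri-snRNP, with 6.51 ± 0.389 against 7.43 ± 0.937 RPKM (log2 -0.16, not called).

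The 2 tested genes of the Prp19 complex and late steps and the 3 of the minor spliceosome gave no calls by limma (1 of the 5 at an unadjusted p under 0.05, *Snrnp48*). Among all genes 24.0% were called, a share that 0 of 5 cannot be told apart from. *Prpf19*, the ubiquitin ligase of the Prp19 complex, had 4.0 ± 0.320 RPKM in KD and 4.06 ± 0.0873 in controls, and *Prpf18*, a factor of the second step, had 4.35 ± 0.571 against 4.41 ± 0.220 RPKM. Their 95% intervals on the log2 scale were -0.23 to 0.19 and -0.26 to 0.23. In the minor spliceosome, which removes U12-type introns, *Snrnp48* had 1.45, 1.51 and 1.36 RPKM against 1.10, 1.10 and 0.962 RPKM (log2 0.25, SE 0.0866, adjusted p = 0.0709 by limma). *Snrnp35*, the most abundant of them, had 4.01 ± 0.526 against 4.25 ± 0.464 RPKM, and *Snrnp25* had 1.85 ± 0.236 against 2.05 ± 0.322 RPKM.

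The LSm ring on the 3′ end of U6 RNA gave no calls by limma among its 5 tested genes (1 at an unadjusted p under 0.05, *Lsm2*), next to 24.0% of all genes. Of the 5, 2 had a positive and 3 a negative fold change, next to 53.2% positive among all genes. With 5 genes these counts cannot be told apart from those shares. *Lsm2* was highest, with 2.42, 2.78 and 1.92 RPKM in KD and 1.60, 1.80 and 1.76 RPKM in controls (log2 0.30, SE 0.114, adjusted p = 0.0871 by limma). *Lsm3*, the most abundant of the ring, had 8.41 ± 0.965 against 8.53 ± 0.567 RPKM, *Lsm4* 6.58 ± 0.790 against 6.86 ± 0.776 RPKM and *Lsm6* 2.88 ± 0.374 against 3.06 ± 0.152 RPKM (log2 -0.07). *Lsm7* had 4.87 ± 0.546 against 4.05 ± 0.726 RPKM, yet its curated RefSeq rows alone gave 0.142 and 0.00 RPKM, so that its level comes from other rows and is uncertain. *Lsm5* lay under the filter at 0.658 ± 0.261 against 0.631 ± 0.268 RPKM. Sm and LSm genes are short and have near-identical copies in the genome, among which reads could be split.

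Most of the remaining LSm proteins act in decay, storage or histone mRNA processing, and none is a core spliceosome protein. *Lsm1*, which replaces the nuclear subunit in the cytoplasmic LSm ring of mRNA decay (chr8:25785288-25803975), measured 5.65, 6.12 and 9.08 RPKM in KD and 11.1, 10.3 and 10.4 RPKM in controls. It fell below every control in each KD library, with KD replicate 3 nearest to them (0.657 of the control mean, log2 -0.57, SE 0.161, adjusted p = 0.0382 by limma). *Lsm14b*, an RNA-binding protein of P-bodies (chr2:180024987-180035465), moved the other way, at 6.0, 4.26 and 3.80 RPKM against 2.98, 2.42 and 2.86 RPKM (log2 0.58, SE 0.150, adjusted p = 0.0285 by limma). Its paralog *Lsm14a* overlapped between groups, at 10.3 ± 1.99 against 9.16 ± 0.649 RPKM. *Lsm10* and *Lsm11*, which replace SmD1 and SmD2 in the U7 snRNP of histone mRNA processing, had log2 fold changes of 0.22 and -0.05, and *Lsm12* had 0.25; none of these was called. *Lsm10* was the most abundant of the 6, at 10.6 ± 0.662 against 8.99 ± 0.445 RPKM.

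**Figure D4:**
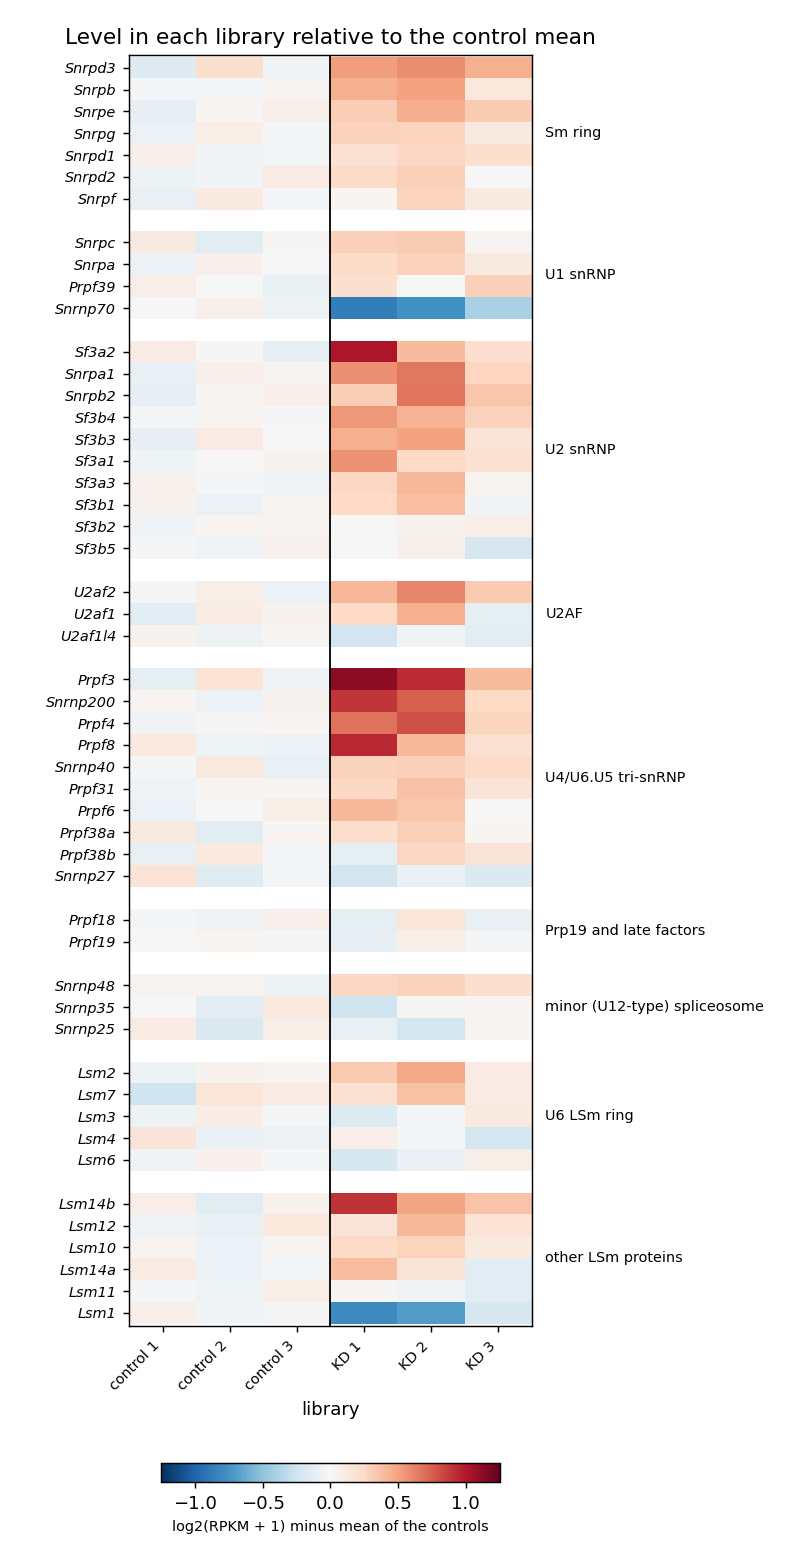
Level of tested spliceosome genes (rows, grouped by role) in each of the 6 libraries (columns) as log2(RPKM + 1) minus the mean of the 3 controls (colour, red higher and blue lower). Most rows are red in KD replicates 1 and 2 and paler in KD replicate 3, where the median over members was 0.12, and the rows of *Snrnp70* and *Lsm1* are blue.

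Across the 39 members that were not called, log2 fold changes ran from -0.16 to 0.54, 28 of them positive and 11 negative, and their 95% intervals together reached from -0.42 (*Snrnp27*) to 0.99 (*Sf3a2*). In 15 of them every KD library exceeded every control, and in 0 was every KD library below. The shares of all genes tested, 22.9% and 21.9%, include called genes and so are not a like background for these 39. An adjusted p between 0.05 and 0.1 was found for 9, namely *Snrnp48*, *Prpf31*, *Snrnp40*, *Lsm2*, *Sf3a1*, *Snrpb*, *Sf3b3*, *Prpf8* and *Sf3a2*, all with positive fold changes. When only curated RefSeq mRNA rows were averaged, 16 of 49 members were called, 14 higher and 2 lower, next to 30.4% of all genes. All 12 members called over all rows were among them.

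Other genes of the splicing pathway were taken from lists of 96 symbols, of which 88 were tested. Of these 24 were higher and 2 were lower (29.5% called, next to 24.0% of all genes), and their median log2 fold change was 0.24. The filter acts on the mean over all 6 libraries and left out 8 genes, of which 3 had a control mean above 1 RPKM and every KD library below every control. These were *Ctnnbl1*, at 0.497 ± 0.162 against 1.32 ± 0.190 RPKM, *Cwc27*, at 0.470 ± 0.162 against 1.03 ± 0.0911 RPKM, and *Rnpc3*, at 0.560 ± 0.177 against 1.11 ± 0.156 RPKM, all named after their values were seen. Of the other 5, *Sart1* lay above every control, at 0.507 against 0.353 RPKM, and 4 overlapped. Factors of snRNP assembly and transport gave 9 higher and 0 lower of 19 (47.4% called), with 18 fold changes above 0. The PRMT5 cofactor *Coprs* measured 8.27, 9.96 and 8.39 RPKM in KD and 4.59, 5.06 and 4.88 RPKM in controls (log2 0.75, SE 0.107, adjusted p = 0.00575 by limma). *Gemin4* and *Smn1* of the SMN complex, which loads Sm proteins onto snRNAs, rose from 2.21 ± 0.372 to 3.96 ± 0.332 RPKM and from 0.907 ± 0.107 to 1.83 ± 0.220 RPKM. *Smn1* passed the filter on the mean only through the KD libraries.

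Early-complex and tri-snRNP partners gave 6 higher and 1 lower of 31 (22.6% called), a share near the 24.0% of all genes. By direction, 19.4% were higher and 3.23% lower, next to 11.5% and 12.4% of all genes. *Sart3*, which recycles U4/U6, fell most of all the splicing genes examined. It measured 0.527, 0.476 and 0.693 RPKM in KD and 2.02, 2.07 and 1.99 RPKM in controls, without overlap (log2 -0.95, SE 0.0918, adjusted p = 0.00222 by limma). *Sart3* thus passed the filter on the mean only through the controls. *Wbp4* and *Rbm17* rose from 3.02 ± 0.0223 to 5.18 ± 1.44 RPKM and from 5.21 ± 0.378 to 8.45 ± 1.98 RPKM. Prp19-complex proteins, helicases and catalytic-step factors gave 6 higher and 1 lower of 29 (24.1% called), also near the 24.0% of all genes. Of this list 20.7% were higher and 3.45% lower. *Rbm22*, *Slu7* and *Tfip11* were higher by 0.65, 0.58 and 0.57 on the log2 scale, and *Ddx41*, named after its value was seen, fell by 0.43. *Ddx41*, with means of 0.914 RPKM in KD and 1.57 RPKM in controls, also passed the filter only through the controls. In the exon junction complex 3 of 9 rose (33.3%, next to 11.5% of all genes), *Magoh*, *Casc3* and *Rnps1*, by 0.48, 0.44 and 0.35. Without NC ctrl replicate 1 or 3, 2 genes of these lists were called, where 3.6% and 3.16% of all genes were, and without KD replicate 3 there were 45, next to 41.1% of all genes.

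The relative use of transcript rows within a gene is a separate readout and was tested for all 51 members by limma diffSplice. It was called for 1 member, *Prpf31* (gene-level adjusted p = 0.0160), where 0.738% of 10027 genes were called. The row of GenBank clone AK012987 took 9.71, 10.1 and 12.9% of the summed RPKM of *Prpf31* in KD and 14.8, 15.2 and 15.1% in controls, while the 9 other rows had no adjusted p under 0.05. The RPKM of this row was 3.72, 4.24 and 4.50 in KD and 4.31, 4.75 and 4.67 in controls, whereas the mean over all rows was higher in KD. *Prpf31* overlaps *Gm15927* on the opposite strand. The call was lost when rows under 5% of a gene were left out, with usage relative to the gene mean in each library, and without KD replicate 1 or any control; 5 members were called without KD replicate 3, where 2.0% of all genes were.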

How the data were processed

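The data are 6 RNA-seq libraries, 3 *Ctcflos* KD and 3 NC ctrl, grouped and numbered by the sample titles. The authors deposited 1 table of RPKM values with decimal commas, 168326 rows of GenBank, Ensembl and RefSeq transcripts. For their splice analysis the authors aligned reads with STAR to GRCm38, while the tool behind the table and its use of strand are not given in the sources used here; the library kit marks strand. Rows of a gene share reads, and 14 members overlap a gene on the opposite strand.

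After removal of 305 exact repeats, RPKM were averaged over the rows of a symbol. Symbols with a mean of at least 1 RPKM were tested with limma-trend on log2(RPKM + 1), with Benjamini-Hochberg adjustment over all 11701 symbols. An exact permutation test of 3 against 3 libraries cannot go below p = 0.1 and was not used. Usage of rows was tested with limma diffSplice on log2(RPKM + 0.1) with Simes p-values per gene. Scripts were checked on simulated data. Depth came from low RPKM values of Ensembl transcripts, of which 96.6 to 97.3% were whole multiples of the value of 1 read (up to 8 reads, within 0.1 read). The search was limited to plausible depths after a first pass found doubled values in KD libraries. Gene positions come from Gencode vM21, and promoters from RefSeq. Symbols in lists were matched to older names of the table through RefSeq accessions.

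The values of 1 member are not reported here, although counts over members include it. The members and lists were chosen with earlier results of these data known. Called members were named with every library, along with the most abundant, highest and lowest member of each role, and up to 3 called genes of each other splicing list. Motifs, printed promoters, the retained-intron ratio, the omission of 6 LSm proteins and the limit of 100 kb were chosen after seeing the data. Alternatives were a pseudocount of 0.1, blocking on the replicate number, scaling by median ratios, no filter, RefSeq mRNA rows alone and each library left out. The work used R 4.3.3, limma 3.58.1, Python 3.11.15 and pandas 2.3.3.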

Additional observations from a re-analysis of the deposited data

How the results depend on the processing

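A pseudocount of 0.1 moved the fold change of *Ctcflos* from -0.66 to -2.01 (adjusted p = 0.0191 by limma). This pseudocount and scaling by the median of ratios left the same 12 spliceosome genes called. The median over members was 0.17 to 0.28 in every setting run. Without a filter on low values limma called 1 member (26 at an unadjusted p under 0.05, and 4.71% of 38335 symbols called), 7 other splicing genes and 1807 symbols in all; more symbols were then tested. With the replicate number as a block, 6 members were called (6 of 6 among the 12), 11 other splicing genes and 1671 symbols (14.3%), and *Ctcflos* kept its fold change of -0.66 at an adjusted p of 0.113. The numbers were not taken to pair the libraries, since the correlations of same-numbered deviations from the group means were 0.29, -0.29 and -0.42. KD replicate 2 correlated best with NC ctrl replicate 3 (0.50), and KD replicate 3 with NC ctrl replicate 2 (0.42). A pairing by this other match was not tested, and the main tests are unpaired. With each library left out in turn, calls ranged from 0 to 25 for members (14 and 15 at an unadjusted p under 0.05 where there were 0), from 2 to 45 for other splicing genes, from 369 to 4810 for all symbols and from 0 to 5 for members with changed usage of rows. The fold change of *Ctcflos* then ranged from -0.72 to -0.63, and its adjusted p from 0.00973, without KD replicate 3, to 0.130. Of the leave-one-out settings that lost the call of *Ctcflos*, values lay between -0.68 and -0.63. Usage gave 0 members with rows of at least 5% of a gene and 0 relative to the gene mean (limma, 2 each at an unadjusted p under 0.05), and 0 without KD replicate 1, NC ctrl replicate 1, 2 or 3 (3, 1, 2 and 3 at an unadjusted p under 0.05). The cause of these changes was not tested.

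Of 558 fold changes of single members under alternatives, 458 kept direction and side of the threshold, 72 lost the call, 17 gained it and 11 changed sign. Those that changed sign belong to 6 members with fold changes near 0. Over the settings that left out a library, *Lsm3* ranged from -0.0956 to 0.0528, *Lsm4* from -0.121 to 0.0297, *Prpf18* from -0.105 to 0.0287, *Prpf19* from -0.0671 to 0.0243, *Sf3b5* from -0.107 to 0.0284 and *Snrnp35* from -0.134 to 0.0204, and *Prpf19* was 0.00427 with RefSeq rows alone. For *Sf3a2*, which was not called, the 95% interval reaches 0.99, while for *Prpf19* and *Snrnp27* it ends at 0.19 and 0.10.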

Other observations

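Some proteins of these complexes carry symbols in the table that the rule does not take. *Sf3b6*, the SF3B subunit at the branch point adenosine (0610009D07Rik in the table), measured 7.11 ± 0.551 RPKM in *Ctcflos* KD and 7.06 ± 0.460 in controls (SD, n = 3), a log2 fold change of 0.01 with a 95% interval of -0.23 to 0.25. *Lsm8*, the nuclear subunit of the U6 LSm ring (Naa38 in the table), had 4.04, 3.81 and 3.66 RPKM against 4.07, 2.55 and 2.72 RPKM, and its groups overlapped. The kinase *Prpf4b* had 14.5 ± 1.5 against 12.8 ± 0.261 RPKM and *Snrpn*, the imprinted SmN gene, 0.985 ± 0.185 against 0.764 ± 0.0647 RPKM.

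Transcripts that keep an intron could be set against coding transcripts for members with Ensembl rows of both kinds, an analysis added after seeing the data. A ratio of retained-intron to coding rows was available for 9 members and its log2 difference between KD and control lay between -0.15 (*Snrnp25*) and 0.22 (*Prpf31*). By limma 0 of 1613 symbols were called for this ratio (128 at an unadjusted p under 0.05), and the smallest adjusted p of a member was 0.725. The ratio of rows annotated for nonsense-mediated decay to coding rows was available for 4 members, among them *U2af1l4*, *Snrpa* and *Prpf3* with differences of 0.18, 0.10 and 0.04, and 0 of 813 symbols were called by limma (58 at an unadjusted p under 0.05). Rows of a gene share reads, and splice junctions were not analysed here.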
